A study of Mus musculus with 27 samples.

Results

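Cultured muscle cells were compared between time points at opposite phases of a circadian day: 24 and 48 h after a serum shock (6 libraries) against 12, 36 and 60 h (9 libraries). The rule takes these 15 of the 27 libraries in the series by their time labels. All of them came from C2C12, a mouse myoblast line, grown in 10% fetal bovine serum, differentiated into myotubes in medium with 2% horse serum, and then exposed to 50% horse serum for 2 h; the 12 libraries of 18, 30, 42 and 54 h received the same treatment and served only as background. Each time point had 3 replicates, and no genotype, dose or other agent differed between the groups. DNA methylation was measured by reduced representation bisulfite sequencing, in which a restriction digest keeps CpG-rich fragments and bisulfite leaves methylated cytosines unconverted. No library of unshocked or undifferentiated cells was analysed here, and C2C12 is a single immortalised line without liver, brain or other tissue around it.

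A pulse of serum sets the circadian clocks of a dish of cells to one phase, after which clock genes are transcribed in a cycle of about a day. In that clock, CLOCK and BMAL1 (the product of Arntl) bind the E-box CACGTG and activate Per, Cry, Nr1d1, Nr1d2 and Dbp. PER and CRY proteins then inhibit CLOCK and BMAL1, and the nuclear receptors encoded by Nr1d1, Nr1d2 and Rora act on Arntl. The E-box contains a CpG, so its methylation can be read in bisulfite data where a fragment covers it. Times 24 h apart fall at the same point of such a cycle, and times 12 h apart at opposite points, so the comparison asks whether methylation levels alternated with the cycle.

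Of 917726 autosomal positions, 868546 (94.6%) had a level in all 15 libraries. Positions no more than 100 bp apart were joined into 23261 runs, with a median of 23 positions, 17 CpGs and 244 bp. Most runs were nearly unmethylated: 13997 had a mean level under 10%, 8639 lay between 10% and 90%, and 625 lay over 90%. The read number behind each level is unknown. Libraries lacked between 1577 (48 h, replicate 2) and 21290 (12 h, replicate 3) autosomal positions, and the share of kept positions at exactly 0 ran from 5.63% (24 h, replicate 3) to 26.2% (12 h, replicate 3).

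Promoter windows of 3 genes are shown because several results turn on them: Slc13a3 held the highest-ranked run that overlapped a promoter window, Hoxd10 joined a run of higher mean level to an E-box with a measured CpG, and Ciart carried 3 measured E-boxes. Each window holds 250 bases before and 50 after an annotated start, taken from RefSeq on GRCm38.p6 and written 5′ to 3′ on the strand of the gene. In the first pair, capitals mark the bases with a level in all 15 libraries; in the last, capitals mark the E-boxes. The windows were chr2:165473148-165473447 on the minus strand, chr2:74691641-74691940 on the plus strand and chr3:95882179-95882478 on the minus strand.
Slc13a3: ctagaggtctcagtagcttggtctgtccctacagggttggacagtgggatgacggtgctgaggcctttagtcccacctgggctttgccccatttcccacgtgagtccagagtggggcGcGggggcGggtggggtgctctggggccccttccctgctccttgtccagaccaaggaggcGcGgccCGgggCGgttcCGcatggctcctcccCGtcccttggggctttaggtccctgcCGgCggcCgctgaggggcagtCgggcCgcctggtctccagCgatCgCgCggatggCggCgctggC
Hoxd10: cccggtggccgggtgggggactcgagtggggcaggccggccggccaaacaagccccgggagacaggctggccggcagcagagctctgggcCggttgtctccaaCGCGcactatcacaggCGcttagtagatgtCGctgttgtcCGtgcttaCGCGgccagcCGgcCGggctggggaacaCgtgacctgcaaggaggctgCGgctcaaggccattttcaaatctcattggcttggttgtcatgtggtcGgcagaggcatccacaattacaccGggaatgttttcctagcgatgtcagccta
Ciart: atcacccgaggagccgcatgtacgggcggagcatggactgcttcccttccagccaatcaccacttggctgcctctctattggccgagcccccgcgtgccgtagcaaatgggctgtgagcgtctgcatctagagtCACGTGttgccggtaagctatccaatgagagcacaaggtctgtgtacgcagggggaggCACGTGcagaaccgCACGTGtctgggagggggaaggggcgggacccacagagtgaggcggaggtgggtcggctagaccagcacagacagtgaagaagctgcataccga

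Methylation at 24 and 48 h could not be told apart from that at 12, 36 and 60 h at any run after adjustment. With limma, 0 of 23261 runs (0%) passed an adjusted p of 0.05, and the smallest adjusted p was 0.0710, at Ywhag. At an unadjusted p under 0.05 there were 1015 runs (4.36%), of which 693 (2.98%) were higher and 322 (1.38%) lower at 24 and 48 h. The difference, as the mean of the 6 libraries minus the mean of the 9, had a median of 0.160 percentage points over all runs and reached from -24.7 to 30.1 points. The 6 and the 9 libraries did not overlap at 6 runs that were higher (0.0258%) and 1 that was lower (0.0043%).

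How large a difference could have gone unseen depended on the level of the run. The 95% interval of the difference stayed within 5 points of 0 at 54.7% of all runs and within 10 points at 82.4%. Among runs under 10% methylation, 78.4% had an interval within 5 points. The share was 16.6% among runs between 10% and 90%, and 49.9% among runs over 90%. Runs of 50 or more positions had such an interval in 88.4% of cases and runs under 10 positions in 17.4%, so the measurements were tightest at large unmethylated islands and widest at short, partly methylated runs.

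**Figure D1:**
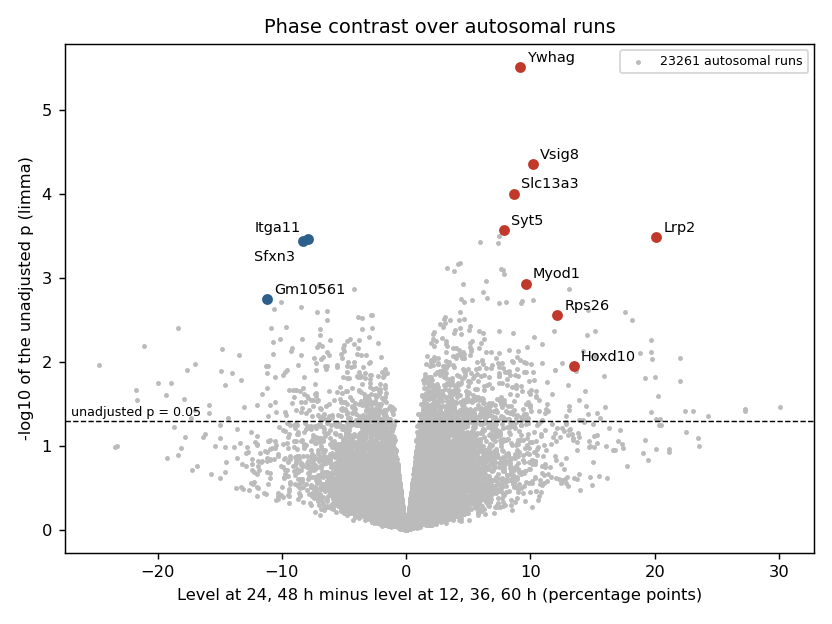
Each point is 1 of 23261 autosomal runs, with the level at 24 and 48 h minus the level at 12, 36 and 60 h in percentage points (horizontal) and −log10 of limma's unadjusted p (vertical); the dashed line marks an unadjusted p of 0.05, and coloured points are named runs, red for higher and blue for lower. Ywhag stands highest, and no run passed the adjusted threshold.

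Among runs with a higher level at 24 and 48 h, the smallest p belonged to a run upstream of Ywhag, the gene of the adapter protein 14-3-3 gamma. The run (chr5:135935030-135935120, mm10) held 9 positions in 8 CpGs and lay 389 bp before the gene's start. Its levels were 4.60%, 6.42% and 10.8% at 12 h, 17.4%, 15.7% and 15.5% at 24 h, and 7.55%, 7.57% and 6.59% at 36 h. They were 14.1%, 12.6% and 22.3% at 48 h and 5.12%, 5.75% and 9.21% at 60 h. All 6 libraries of 24 and 48 h lay above all 9 others, with the highest level in replicate 3 of 48 h. The means were 16.3% ± 3.36 (SD, n = 6) and 7.07% ± 1.98 (SD, n = 9). Their difference was 9.20 points (SE 1.16, 95% interval 6.69 to 11.7) with a limma adjusted p of 0.0710. At the intermediate times, the means were 11.2% at 18 h, 10.8% at 30 h, 8.36% at 42 h and 9.73% at 54 h, all between those of the opposed times. The other run at Ywhag, with 40 positions across the gene's start, stayed at 1.26% against 1.18%. When runs were joined over gaps of up to 200 bp, fewer runs were tested and the same Ywhag run passed, with a limma adjusted p of 0.0499; it was the only run to do so.

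Next in rank was a run of 7 positions 1439 bp before the start of Vsig8, which encodes a membrane protein with immunoglobulin domains (chr1:172554369-172554499). Its level at 24 and 48 h had a lowest value of 61.9%, a median of 65.5% and a highest value of 69.2%, against 49%, 54.5% and 62.1% at 12, 36 and 60 h. Replicate 2 of 12 h was the only library of the 9 that reached into the range of the 6. The difference was 10.2 points (SE 1.67, limma adjusted p = 0.512). At 42 h the mean of this run was 63.0%, above those of 18 h (59.7%) and 30 h (57.5%).

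The run at Slc13a3, the gene of a sodium-coupled dicarboxylate transporter, crossed the start in the printed window (chr2:165473037-165473330, 33 positions). Levels at 24 and 48 h were 26.4% at the lowest, 31.2% at the median and 37.1% at the highest. At 12, 36 and 60 h they were 17.8%, 21.4% and 34.3%. The groups overlapped, because replicate 1 of 12 h (34.3%) lay within the range of the 24 and 48 h libraries. The difference was 8.70 points (SE 1.55, limma adjusted p = 0.766). At the intermediate times the means were 32.5% at 18 h, 28.3% at 30 h, 30.3% at 42 h and 34.0% at 54 h. These lay nearer to the mean of 24 and 48 h (31.8%) than to that of 12, 36 and 60 h (23.1%). A second run of 10 positions inside Slc13a3 differed by 2.08 points (SE 3.03). Within the printed window, 20 of 22 CpGs were measured, and the E-box, 154 bases before the start, was not among them.

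Syt5, a calcium sensor of vesicle fusion, had a run of 26 positions inside the gene (chr7:4546603-4546986). The 6 libraries of 24 and 48 h lay close together, between 38.2% and 41.5% with a median of 40.3%, and the 9 others spread from 25.9% to 38.1% with a median of 31.2%. They did not overlap, but replicate 2 of 60 h came within 0.0087 points of replicate 2 of 48 h. The difference was 7.88 points (SE 1.57, limma adjusted p = 0.898).

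The largest difference among the 10 leading higher runs stood 1245 bp before the start of Lrp2, the gene of the endocytic receptor megalin (chr2:69587274-69587340, 10 positions). Levels at 24 and 48 h were 29.1% at the lowest, 39.5% at the median and 59.0% at the highest, and at the other times 0%, 20.3% and 33.7%. Replicate 3 of 48 h stood highest and replicate 1 of 12 h was listed at 0. The difference was 20.1 points (SE 4.11, limma adjusted p = 0.898), and 4 of the 6 libraries lay above all 9. By time, the means of this run were 33.7% at 24 h and 46.1% at 48 h. At 18, 30, 42 and 54 h they were 40.3%, 29.2%, 38.2% and 36.7%. The group means were 39.9% at 24 and 48 h and 19.8% at 12, 36 and 60 h.

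The rest of the 10 were Mfsd4b2 (a transcribed pseudogene), Tnfrsf8 (the receptor CD30), Tdrd5 (a tudor protein of male germ cells), Galnt17 (a glycosyltransferase) and Lemd2 (a protein of the inner nuclear membrane). Their differences ran from 4.20 points at Lemd2 to 7.46 points at Mfsd4b2. The Lemd2 run was the longest of the 10, with 123 positions over 1027 bp. It had levels of 3.09% to 8.87% at 24 and 48 h and of 1.05% to 3.02% at the other times, without overlap. The 10 runs had no common level or place. Tnfrsf8 and Lemd2 were under 10% methylated, Mfsd4b2 was at 84.4% against 76.9%, and 4 of the 10 lay at a gene end (within 500 bp of it), 4 inside a gene and 2 outside.

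Lower levels at 24 and 48 h were led by a run of 7 positions inside Itga11, 546 bp after its start (chr9:62678401-62678578); Itga11 encodes a collagen-binding integrin subunit. Levels at 24 and 48 h were 0% at the lowest, 1.9% at the median and 10.7% at the highest, against 6.05%, 11.3% and 17.3%. The 3 libraries of 24 h and replicate 1 of 48 h lay below all 9 others, and replicates 2 and 3 of 48 h lay among them. The difference was -7.93 points (SE 1.63, limma adjusted p = 0.898). At the intermediate times this run was widely scattered, from 0% in replicate 3 of 18 h to 35.3% in replicate 1 of 42 h.

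Sfxn3, a mitochondrial serine transporter, followed with a run of 11 positions that Pdzd7 also overlaps (chr19:45049147-45049316). Its levels at 24 and 48 h were 59.3% at the lowest, 64.2% at the median and 68.6% at the highest, against 63.4%, 73.8% and 81.2%. The difference was -8.32 points (SE 1.72, limma adjusted p = 0.898), and 3 of the 6 libraries lay below all 9. The other 8 leading lower runs were at Spred1 (an inhibitor of Ras signalling), Lrp3, Gm10561, Serf2, Zfp518b, Efemp1 (an extracellular matrix protein), Zdhhc22 and Tgfbr3l. Their differences ran from -4.22 points at Lrp3 to -11.2 points at Gm10561. None of the 10 lower runs separated the 6 libraries from the 9.

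**Figure D2:**
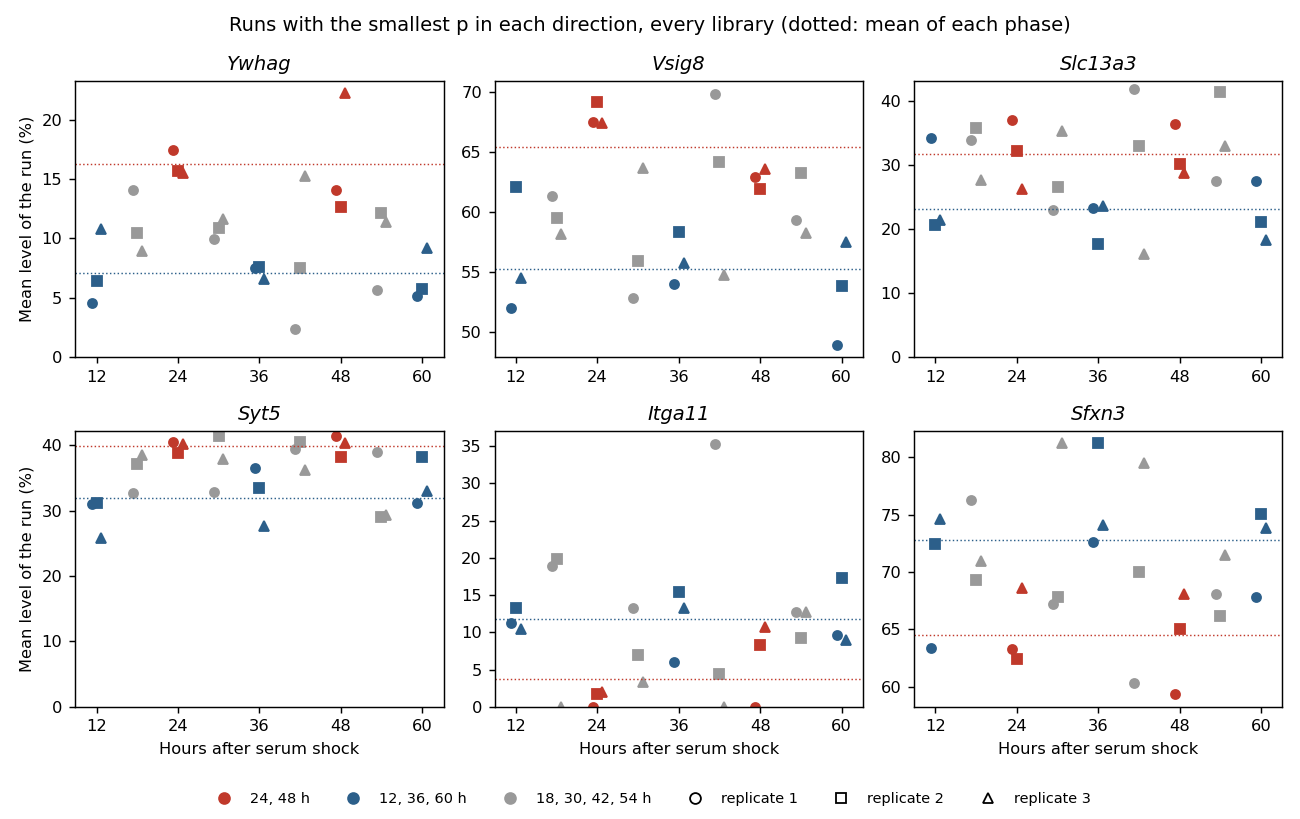
The mean level of 6 runs (percent, vertical) is plotted in all 27 libraries against hours after serum shock; red marks 24 and 48 h, blue 12, 36 and 60 h, grey the intermediate times, symbols the replicate number, and dotted lines the mean of each group. At Ywhag and Syt5 every red point lies above every blue one, and at Itga11 the red points of 24 h lie below all blue ones.

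Besides Ywhag, Syt5 and Lemd2, the runs whose groups did not overlap were at Gm15860, Rps26, Upk3bl and Pcnx. Upstream of the ribosomal protein gene Rps26 (chr10:128626688-128626781, 6 positions), levels at 24 and 48 h were 7.95% at the lowest, 11.4% at the median and 33.6% at the highest, and at the other times 0%, 1.78% and 7.36%. The highest was replicate 1 of 24 h, and all 3 libraries of 12 h were listed at 0. The run nearer to the start of Rps26 differed by 0.770 points. At Upk3bl (chr5:136054744-136054808, 5 positions) all 6 libraries were at 100%, and the 9 others ran from 57.8% to 97.4%. At Pcnx (chr12:81860440-81860585, 14 positions) 5 of the 6 libraries were at 0% and the sixth at 0.276%, and the 9 others ran from 0.348% to 7.93%. The lncRNA gene Gm15860 had levels of 4.62% to 11.9% against 1.86% to 4.56%. None of the 7 passed with limma; outside Ywhag the adjusted p lay between 0.898 and 0.970.

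Whole-library levels differed by less than the spread between libraries. The mean level over all runs was 19.5% ± 0.495 (SD, n = 6) at 24 and 48 h and 19.2% ± 0.391 (SD, n = 9) at 12, 36 and 60 h. The difference of 0.274 points had a two-sided exact permutation p of 0.211 (labels exchanged within a replicate number, 1000 arrangements, smallest possible p 0.001; 0.333 adjusted over 7 classes). Single libraries were exchanged and not whole time points, of which there were 5. The permutation p therefore treats libraries of the same time point as independent. The extremes were replicate 3 of 48 h at 20.3% and replicate 3 of 12 h at 18.7%. Within replicate 1 the groups differed by 0.142 points, within replicate 2 by -0.245 and within replicate 3 by 0.923, so the direction was not shared by all replicate numbers. Without replicate 2 of 12 h the difference was 0.369 points with an exact permutation p of 0.0433, and without replicate 3 of 48 h it was 0.120 points.

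By class of run, the library mean was higher at 24 and 48 h by 0.221 points in runs under 10% (exact permutation p = 0.243) and by 0.389 points in runs between 10% and 90% (p = 0.220, exact permutation). In runs over 90% it differed by -0.150 points (exact permutation p = 0.285). Runs at gene ends, inside genes and outside genes differed by 0.274, 0.282 and 0.205 points, with exact permutation p-values of 0.179, 0.264 and 0.507. The mean difference over runs was above 0 on all 19 autosomes, from 0.122 points on chromosome 18 to 0.386 points on chromosome 17. These values come from the same 15 libraries, so the chromosomes are not independent observations. The split of runs into higher and lower ones changed with the model and the libraries. With the library mean as a covariate the runs at an unadjusted p under 0.05 were 447 higher and 402 lower, in place of 693 and 322. That covariate averages the same runs, which forces their mean difference to 0, so this fit cannot show what the split follows. Without the 5 libraries of replicate 3, and without the covariate, the runs were 532 higher and 439 lower.

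**Figure D3:**
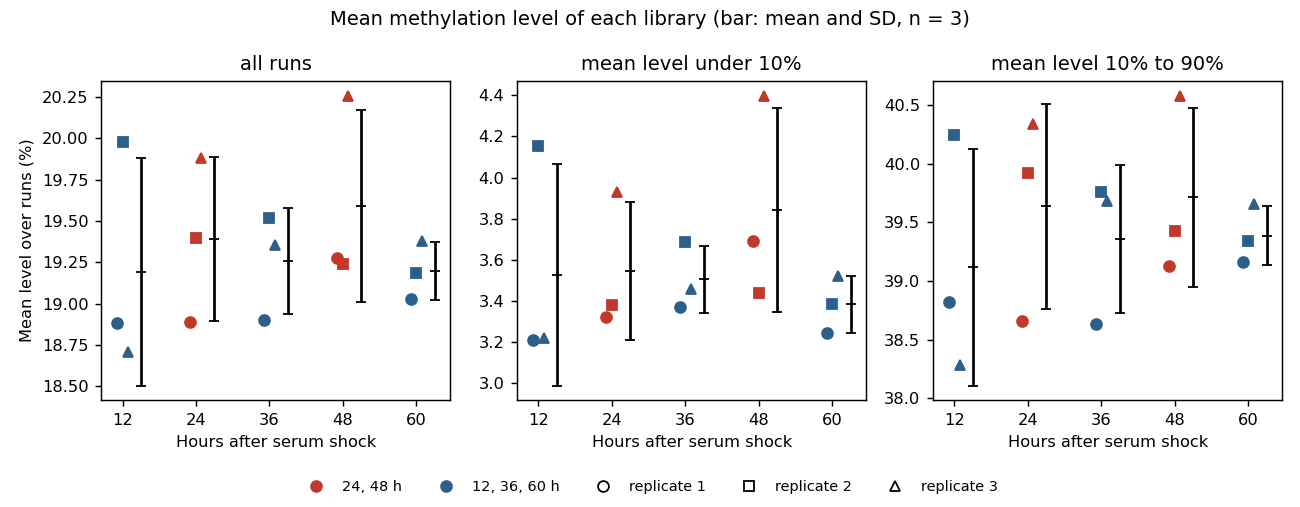
The mean level over runs of each of the 15 libraries (percent, vertical) is plotted against hours after serum shock, for all runs, runs under 10% and runs between 10% and 90%; symbols mark the replicate number, red the 24 and 48 h libraries and blue the others, and black bars give the mean and SD of 3. Replicate 3 of 48 h is highest in each panel, and the 2 colours overlap throughout.

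Run levels correlated to the same degree in pairs of libraries from opposed times and in pairs from the same time. Levels differ widely from run to run, so such correlations mostly follow the level of each run. They say little about differences of a few points. Across runs, which are not independent replicates, the mean Pearson correlation of run levels was 0.955 for 15 pairs within a time point, 0.956 for 36 pairs from different times of the same group and 0.956 for 54 pairs from opposed groups. The comparison was also split into parts that share no library. The differences of 24 h minus 12 h and of 48 h minus 60 h had a Pearson correlation of -0.00458 and a Spearman correlation of -0.00886 over 23261 runs, and 49.6% of runs had the same sign in both. For 24 h minus 36 h and 48 h minus 60 h the Pearson correlation was 0.00936, and for 24 h minus 12 h and 48 h minus 36 h it was -0.00594.

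**Figure D4:**
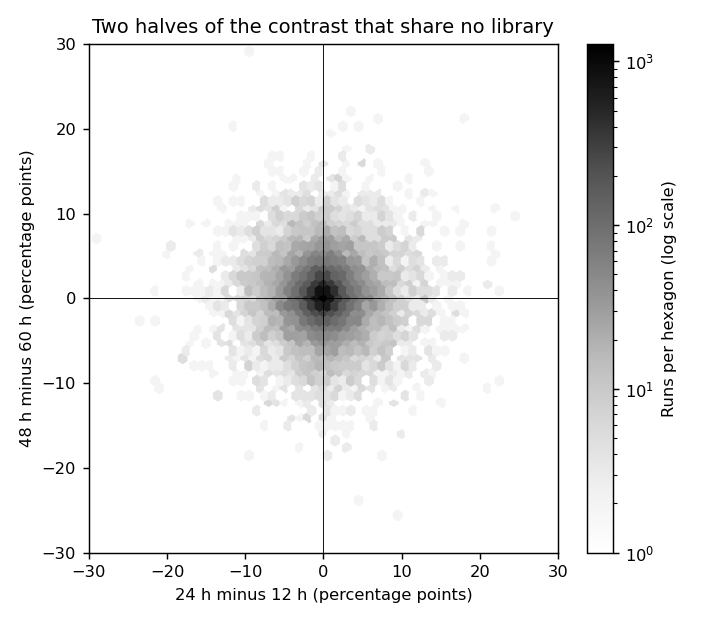
Each hexagon counts runs (grey scale, log) by their difference of 24 h minus 12 h (horizontal) and of 48 h minus 60 h (vertical), in percentage points, from libraries that the axes do not share; 61 runs lie beyond the 30 points shown. The cloud is round and centred near 0, with a Pearson correlation of -0.00458.

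Background comparisons also used limma with the replicate number as a block, but other models or libraries. For 48 against 24 h, which fall at the same point of the cycle, time entered as a factor. With time as a factor, 24 and 48 h against 12, 36 and 60 h had 981 runs (4.22%) at an unadjusted p under 0.05 and 0 that passed. Between 48 and 24 h, 1086 runs (4.67%) were at an unadjusted p under 0.05 and 1 (0.0043%) passed. That run lay inside Trim29, the gene of a tripartite motif protein (chr9:43311258-43311501, 15 positions). Its level rose from 76.9% ± 2.07 (SD, n = 3) at 24 h to 90.5% ± 2.70 (SD, n = 3) at 48 h, by 13.6 points (SE 1.32, limma adjusted p = 0.0428); without the replicate block no run passed. At 12, 36 and 60 h it was 86.8%, 81.5% and 85.3%. The other opposed times, 18 and 42 h against 30 and 54 h, were fitted over positions with a value in all 27 libraries. They had 1039 of 22734 runs (4.57%) at an unadjusted p under 0.05 and none that passed with limma (smallest adjusted p 0.973).

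Gene lists covering the clock, muscle, growth and other lineages were read for their counts. Of 387 listed genes, 314 had a run inside or within 2000 bp. Their 793 runs included 34 (4.29%) at an unadjusted p under 0.05 against 4.36% of all runs, 23 higher and 11 lower, and limma passed none. The median difference over list runs was 0.180 points against 0.160 over all runs.

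Core clock genes had 62 runs at 25 of 26 genes, with a median difference of 0.280 points; 2 (3.23%) were at an unadjusted p under 0.05, both higher, and none passed. One was at Dbp, a clock output transcription factor, in a run 335 bp after the start (chr7:45705582-45705755, 14 positions). Its levels at 24 and 48 h were 4.10% at the lowest, 6.99% at the median and 12.8% at the highest, against 0%, 4.59% and 7.32%. The groups overlapped, the difference was 3.73 points (SE 1.70), and the 4 other runs at Dbp differed by -1.94 to 3.50 points. The other was at Timeless, a gene of the replication fork with a debated clock role in mammals, at 1.73% against 0.475%, in a run that Gm26847 also overlaps.

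The activators did not separate either. At Clock, the run over the start (67 positions) was at 3.99% ± 1.14 (SD, n = 6) and 3.52% ± 1.31 (SD, n = 9), and the 95% interval of the difference was -1.18 to 2.13 points. At Arntl, a partly methylated run of 15 positions 635 bp before a start was at 24.0% ± 6.83 (SD, n = 6) and 20.5% ± 5.42 (SD, n = 9), with an interval of -2.94 to 9.99 points. That run ranged from 13.9% to 34.0% over the 15 libraries, and the group with the higher mean depended on 48 h: without those libraries the difference was -1.17 points. The island of 60 positions at the same gene was at 2.98% against 3.07%.

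Clock repressors were unmethylated or nearly so. Runs at Per2 (85 positions) were at 0.930% and 1.27%, at Per3 (78 positions) at 5.18% and 4.41%, and at Cry1 (56 positions) at 1.43% and 2.95%. The run at Per1 was at 6.31% ± 6.38 (SD, n = 6) and 3.57% ± 2.01 (SD, n = 9); replicate 1 of 24 h reached 17.5%. At Cry2 a short run of 6 positions was at 11.3% and 8.65%, while the 38 positions nearer to the start were at 1.71% and 2.01%. Among the nuclear receptors, Nr1d1 was at 2.92% and 3.64% and Nr1d2 at 5.18% and 2.34%, each in the run of the gene with the smallest p. In that Nr1d2 run, 10 of the 15 libraries were listed at 0. The other Nr1d2 runs, of 66 and 44 positions, were at 1.58% against 2.07% and at 1.66% against 1.26%. The other Nr1d1 run was at 2.24% against 2.30%. The sign of the difference at Cry2, Nr1d1, Per1, Per2 and Clock reversed under at least 1 alternative setting.

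E-boxes themselves could be read at single CpGs. The motif CACGTG, which is its own reverse complement, occurs in 2243 of 31396 RefSeq promoter windows (7.14%). Levels were measured at 877 positions in 633 E-box CpGs of 626 genes. Of these positions, 40 (4.56%) were at an unadjusted p under 0.05, 31 higher and 9 lower, and limma passed none. The corresponding share was 3.64% of all 201779 measured positions in promoter windows (5182 higher and 2166 lower). It was 4% of the 868546 positions in all (23551 higher and 11226 lower), so higher positions outnumbered lower ones there too. At Ciart, a repressor of CLOCK and BMAL1, the E-boxes printed in capitals begin 116, 58 and 44 bases before the start. The CpG of the first was at 6.57% and that of the others at 3.88% and 3.17% at 12, 36 and 60 h, against 8.15%, 3.04% and 1.74% at 24 and 48 h. All 3 differences were smaller than the SD of the 9 libraries. The E-box CpG of Tef, another clock output factor, was at 3.33% ± 2.14 (SD, n = 6) and 4.94% ± 4.20 (SD, n = 9). At Cry1 the E-box, 60 bases before the start, had no level in all 15 libraries.

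Myogenic regulators had 39 runs at 19 genes, 1 of them (2.56%) at an unadjusted p under 0.05. It was at Myod1, the master regulator of muscle identity, in a run over the end of the gene with the lower coordinate (chr7:46376422-46376849, 32 positions). Levels at 24 and 48 h were 55.3% at the lowest, 62.3% at the median and 64.6% at the highest, against 43.3%, 51.2% and 59.7%. The 3 libraries of 24 h and replicate 3 of 48 h lay above all 9, and replicates 1 and 2 of 48 h lay among them. The difference was 9.61 points (SE 2.30, 95% interval 4.63 to 14.6, limma adjusted p = 0.970). The intermediate times had means of 53.1% to 56.4%. The other Myod1 run, of 5 positions, was at 30.5% and 40.8%, with single libraries from 0% to 80.8%. Myog, which drives myoblast fusion and terminal differentiation, was at 83.4% ± 3.93 (SD, n = 6) and 84.5% ± 3.66 (SD, n = 9).

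Muscle structure genes had 2 of 31 runs (6.45%) at an unadjusted p under 0.05, both higher: Mylk2, the myosin light chain kinase of skeletal muscle, at 94.4% against 91.3%, and a run 2000 bp or less from Cacna1s, the voltage sensor of the muscle fibre, at 29.2% against 24.3%. The Cacna1s run lies over an end of the neighbouring gene Ascl5 and does not overlap Cacna1s. This run had a mean of 25.7% at 24 h and 32.7% at 48 h, with 26.0% at 12 h. At Actn2, a Z-disc protein, the run over the start was at 34.8% ± 17.5 (SD, n = 6), because replicate 1 of 24 h was at 0.110% and the other 5 libraries lay between 37.9% and 50.0%; the 9 others were at 43.8% ± 5.87 (SD, n = 9).

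Hox and limb patterning genes had 9 of 155 runs (5.81%) at an unadjusted p under 0.05, with Hoxa9, Hoxa13, Hoxb5, Hoxc9, Hoxd9 and Hoxd10 higher and Hoxc12, Shox2 and Tbx18 lower. These genes encode transcription factors that give position along the body and limb. The run at Hoxd10 (chr2:74691731-74691912, 24 positions), over the start in the printed window, had levels of 41.9% at the lowest, 53.6% at the median and 71.9% at the highest at 24 and 48 h, against 21.6%, 45.0% and 49.9%. Replicate 1 of 48 h stood highest and replicate 3 of 12 h lowest, and replicate 3 of 48 h lay within the range of the 9. The difference was 13.5 points (SE 4.54, limma adjusted p = 0.970). Its E-box, 73 bases before the start, had a CpG at 43.9% ± 14.3 (SD, n = 6) and 33.1% ± 10.7 (SD, n = 9). Of the 5 other runs at Hoxd10, 4 differed by -0.530 to 2.66 points. In the fifth, replicate 3 of 12 h was at 100% and the 8 other libraries of 12, 36 and 60 h lay between 8.34% and 18.2%, against 1.98% to 11.8% at 24 and 48 h. Hoxa13 was at 6.07% against 0.763%, with 15.6% in replicate 1 of 24 h, and Shox2 at 35.2% against 46.5%. The Shox2 run was at 41.0% at 24 h and 29.3% at 48 h.

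**Figure D5:**
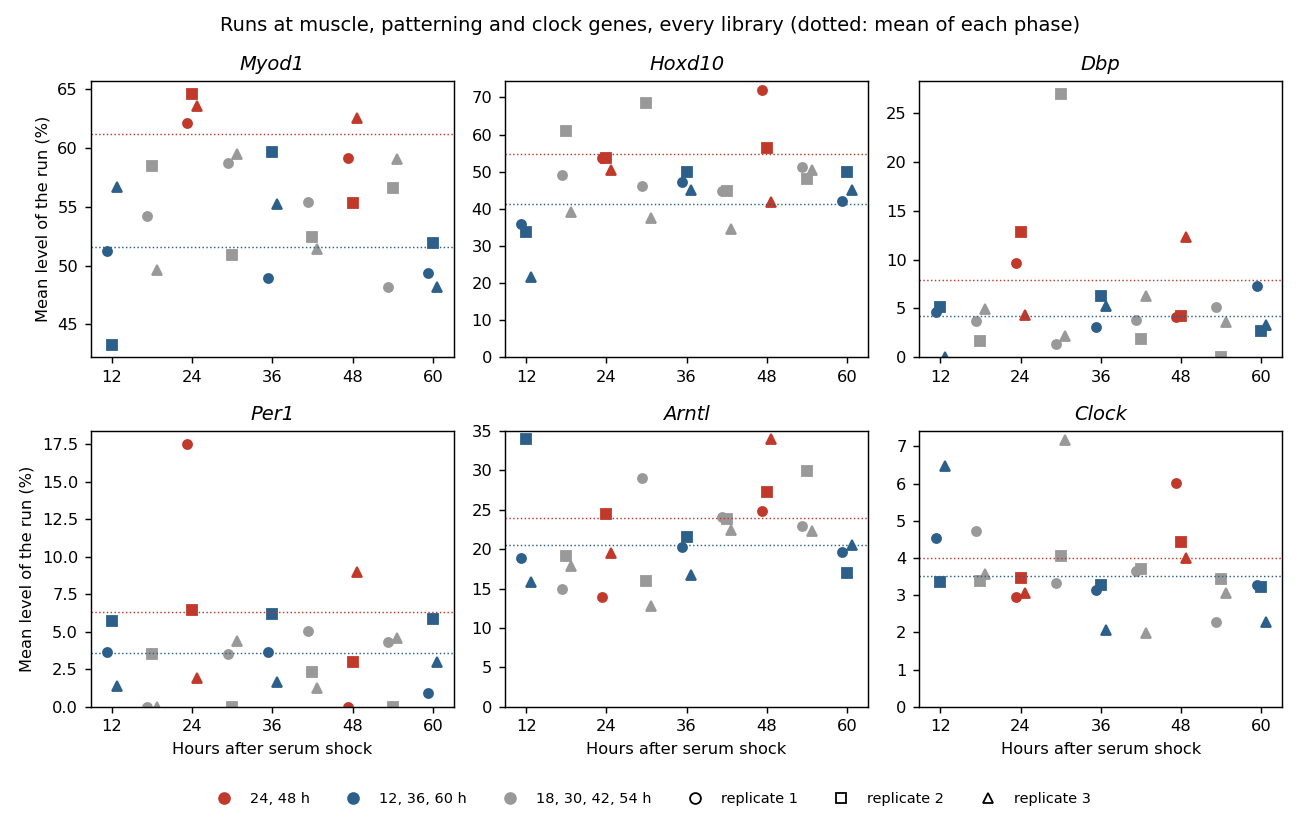
The mean level of runs at Myod1, Hoxd10 and 4 clock genes (percent, vertical) is plotted in all 27 libraries against hours after serum shock, with colours, symbols and dotted means as in the plot of leading runs. Red and blue points overlap in all 6 panels. The means stand farthest apart at Hoxd10 and Myod1, by 13.5 and 9.61 points, and at Hoxd10 the lowest blue points are those of 12 h.

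Cell cycle genes had 5 of 69 runs (7.25%) at an unadjusted p under 0.05. Higher were a run 2000 bp or less from Ccnd2 (cyclin D2; 27.7% against 11.8%), which lies inside the lncRNA gene 9330179D12Rik, and runs at Ccne1 (cyclin E1), E2f1 and Cdkn1c (the Cdk inhibitor p57). Plk1, a mitotic kinase, was lower at 18.7% against 26.1%. The Ccnd2 run spread from 0% to 42.6% within the 6 libraries, and its 6 neighbouring runs differed by -2.75 to 4.41 points. Imprinted genes had 3 of 51 runs (5.88%), at Cdkn1c, Dlx5 and Kcnq1, all higher. The Dlx5 run was at 9.86% at 24 h and 23.3% at 48 h, where replicate 1 reached 40.1%, against 7.28% at 12, 36 and 60 h. At Cdkn1c the level was 44.4% ± 21.3 (SD, n = 6) against 28.7% ± 7.76 (SD, n = 9); replicate 1 of 48 h (13.9%) was below all 9 and replicate 3 of 48 h reached 72.2%.

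Metabolic lists were counted in the same way. Glucose metabolism had 2 of 79 runs (2.53%), both lower: the glycolytic enzyme genes Aldoa (1.98% against 6.73%) and Ldha (81.9% against 89.7%). Lipid and mitochondrial metabolism had 3 of 62 (4.84%), all higher, of which 2 lay at Pnpla2, the gene of adipose triglyceride lipase, and 1 at Pparg. The first Pnpla2 run, which lies in the neighbouring genes Cracr2b and Gm10575, was at 16.8% ± 1.58 (SD, n = 6) against 14.0% ± 2.52 (SD, n = 9). The second, at an end of Pnpla2, was at 10.1% against 2.01%, but at 1.41% at 24 h and 18.8% at 48 h, so its higher mean rested on 48 h. DNA methylation genes had 1 of 51 runs (1.96%), at Gadd45a (4.23% against 2.36%, in a run that E230016M11Rik also overlaps), and immediate-early serum response genes 1 of 93 (1.08%), at Zfp36 (2.97% against 1.01%).

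Lists of other lineages were also counted. Fibroblast and adipocyte markers had 3 of 44 runs (6.82%), with Fn1 higher and Tcf21 and Zfp423 lower; the Tcf21 run lies in the gene Gm10824 and not in Tcf21. Neural, blood and endothelial markers had 1 of 31 (3.23%), at Neurog2, which was lower at 3.95% against 5.86%. Germ cell genes had 2 of 30 (6.67%), Zfp42 and Sycp2, both lower; their runs had a median level of 76.5%, against 5.70% over all runs. Methylation does not measure expression, so these levels describe the DNA of the cultures and not the presence of those cells.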

How the data were processed

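Methylation levels were analysed from 15 of 27 libraries. The authors deposited methylation levels per genomic position on the fraction scale (0 to 1). The levels used here carry no read counts, so depth is unknown and no level was weighted. Per the submitters' processing notes, the tools were Bowtie2, Bismark 0.14.4, cutadapt 1.9.1 and Trim Galore 0.4.0, with build mm10. The labels leave unsaid whether replicates were separate cultures. The p-values then reflect the spread of these libraries alone, and that spread may be technical. In the main limma fit and the permutation, libraries and not time points were the unit.

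Levels were averaged per run and library in percent and tested with limma 3.58.1 in R 4.3.3 (data.table package 1.17.8; group, with replicate number as a block; two-sided; Benjamini-Hochberg over all runs). Library means were tested by exact permutation within a replicate number (scipy 1.17.1, numpy 2.4.6 and pandas 2.3.3 in Python 3.11.15; figures with matplotlib 3.10.9). The limma model was also run on simulated levels with independent normal noise, without the bounds of the percent scale or shifts shared by a library. The real levels are bounded and library means differ, so the simulation does not show how the model behaves on them. Gene ends and promoter windows came from RefSeq on GRCm38.p6, the assembly that mm10 names; of 232164 deposited positions inside promoter windows, 232123 fell on a C or G of a CpG, so positions count from 1. A run belongs to the gene it overlaps, or else to the nearest one, and to a listed gene within 2000 bp.

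Named runs were the 10 higher and 10 lower with the smallest p, among runs without overlap between groups the 5 with the largest difference in each direction, the smallest p in each direction in each of 13 lists, and 12 clock and muscle genes; Gm15860, Hoxd10 and the other runs of a gene or list were named after their values were seen. The result for 1 run that the rule names is not reported here. The comparison, the runs and the lists were chosen with earlier results of these data known. Alternatives were other gaps between positions, the median, an M-value scale, filters on level and length, a library covariate, positions shared by all 27 libraries, a shared spread, time as a factor, no replicate block, and leaving out libraries, times or replicate numbers. Chromosome X was left out.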

Additional observations from a re-analysis of the deposited data

Results flagged for a closer look

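Within each group, the highest and the lowest library were compared with the nearest of the others. Of 136 groups tested, 14 had a library that stood apart beyond the 95% limit of Dixon's test. Chance gives about 1 in 20 groups only where groups are independent and levels are normal. These groups share the same libraries, and many runs were chosen by a small p or a lack of overlap. Some levels also lie at the lower bound of the percent scale. The count therefore cannot show whether libraries stood apart more often than by chance. In library means, replicate 2 of 12 h was high in runs under 10% methylation (4.15%, next 3.69%) and replicate 3 of 12 h was high in runs over 90% (95.03%, next 94.5%).

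Among the 6 libraries of 24 and 48 h, replicate 3 of 48 h stood apart at Lrp2 (59.0%, next 39.8%). Replicate 3 of 24 h was low at Zfp518b (69.5%, next 78.7%). Replicate 1 of 24 h was high at Rps26 (33.6%, next 14.6%) and low at Actn2 (0.110%, next 37.9%). Replicate 2 of 48 h was the only library above 0 at Pcnx (0.276%).

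Among the 9 libraries of 12, 36 and 60 h, replicate 2 of 12 h stood apart at Timeless (1.92%, next 0.848%) and at Arntl (34.0%, next 21.6%). Replicate 3 of 12 h did so at Upk3bl (57.8%, next 80.6%). At 60 h, replicate 1 was high at Nr1d2 (18.5%, next 2.54%) and at Per2 (4.05%, next 1.55%), replicate 2 was high at Rora (17.2%, next 8.30%), and replicate 3 was low at Gm15860 (1.86%, next 3.25%). Replicate 3 of 12 h was also the library with the most missing positions, 21290; the part of missing positions in these values was not tested.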

How the results depend on the processing

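With gaps of up to 200 bp 1 run passed (Ywhag, limma adjusted p = 0.0499), and under every other alternative run 0 did; over its 33 alternatives the adjusted p at Ywhag lay between 0.0499 and 0.959. The main fit and the permutation kept the replicate number as a block, although the labels do not say that it pairs libraries. Deviations correlated by less than 0.1 in each of 30 pairs with the same number (mean 0.00905, range -0.0403 to 0.0336). Pairs with different numbers had a mean correlation of -0.00448 and a similar range, -0.0383 to 0.0342. Of 15 libraries, 12 correlated best with their own number, a hint from the data and not the design. Deviations within a time point sum to 0, so the 15 are not independent, and how often chance gives this count was not tested. With no replicate block, 0 runs passed (smallest limma adjusted p 0.153) and 1007 were at an unadjusted p under 0.05, and for 48 h against 24 h 0 passed (0.257). With the library mean as a covariate 1.92% of runs were higher and 1.73% lower. Leaving out libraries or replicate numbers gave 0 passing runs (0 in the lists), 2.29% to 3.68% higher, 1.25% to 1.89% lower and 3.40% to 5.17% of list runs; with single positions as the unit 0 of 868546 passed. Library mean differences, leaving out 1 library each, were 0.120 to 0.394 points over all runs, 0.0803 to 0.307 under 10%, 0.207 to 0.592 between 10% and 90%, -0.208 to -0.0660 over 90%, 0.128 to 0.379 at gene ends, 0.124 to 0.414 inside genes and -0.0335 to 0.478 outside genes. Without replicate 2 of 12 h the exact permutation p was 0.0433 over all runs, 0.0483 under 10% and 0.0317 at gene ends. Of 61 named runs, 10 changed sign in 19 of 2023 fits. These were Cry2 (-0.729 points at gaps of 50 bp, -0.601 without 48 h, -0.408 without replicate 2 of 48 h to 5.04 without replicate 3), Nr1d1 (0.472 at 50 bp, 0.569 with the median, 0.412 without 24 h), Per2 (0.0640 at 50 bp, 0.107 without 60 h, 0.0611 without replicate 1 of 60 h, 0.0771 without replicate 1 and -0.598 without replicate 2), Clock (-0.793 with the median, -0.356 without 48 h), Per1 (-0.134 with the median), Arntl (-1.17 without 48 h), Myog (0.359 without 24 h, 1.70 without replicate 3 and -3.00 without replicate 2), Pfkl (-0.696 without replicate 1 and 8.30 without replicate 3), and, at 200 bp, Tdrd5 (-1.16) and Mylk2 (-0.0128), whose runs then hold more positions. Otherwise the cause was not tested. Unknown depth limits every level.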
